A study of Mus musculus with 308 samples.

Results

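The genes described here make cholesterol and fatty acids, or control their making, and their expression was followed in 7 tissues of C57Bl/6 mice given fumarate esters. Members were taken from a list of 36 gene symbols, 21 of the sterol branch and 15 of the fatty acid branch, and a probe set counted when a listed symbol was its only gene name. This found 32 of the 36 genes (19 sterol and 13 fatty acid genes, on 57 probe sets) among 17097 genes named in this way on the array. Pmvk, Acat2, Srebf1 and Scd2 had no probe set under this rule, and their expression is not analysed here.

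Mice received vehicle (hydroxypropyl methylcellulose), dimethyl fumarate (DMF) at 100 mg/kg (DMF100) or 179.2 mg/kg (DMF179.2), monoethyl fumarate (MEF) as its Ca, Mg and Zn salts at 79.2 mg/kg (MEF79.2), or DMF at 100 mg/kg together with the MEF salts at 79.2 mg/kg (the combination). Doses were given once a day for 10 days and tissue was taken 12 hours after the last one. A further group is labelled Nav, a name the sources used here do not explain, and its comparison with vehicle is given as a value only. All mice were of one strain. The 308 arrays were made from whole blood, brain, jejunum, kidney, spleen, mesenteric lymph node and inguinal lymph node, with 5 to 8 arrays per group and tissue. The labels do not say whether arrays of different tissues came from one mouse, nor give age or sex, and p-values measure the spread between these arrays.

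Cholesterol is built from acetyl-CoA through mevalonate, isoprenoid units, squalene and a series of sterol intermediates. The transcription factor SREBP2, made from Srebf2, switches on most of these genes when sterol in the endoplasmic reticulum is low, and the Insig proteins hold it back when sterol is high. Fatty acid synthesis runs from citrate through acetyl-CoA and malonyl-CoA to palmitate, which elongases (Elovl genes) and desaturases (Scd and Fads genes) then modify, under the control of SREBP1 and other factors that answer to feeding and insulin. The intestinal epithelium makes a large amount of cholesterol, and fat tissue around lymph nodes is rich in fatty acid synthesis genes. DMF and MEF are esters of fumaric acid that activate the antioxidant factor NRF2, of which Nqo1 is a well-known target.

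The promoters of 3 members on which the results below turn are shown first: Hmgcs1, which makes HMG-CoA for the mevalonate route, Srebf2, the regulator, and Ebp, a sterol isomerase late in the route. The sequences are the 250 bases before the gene start in RefSeq, build GRCm38.p6, on the strand of the gene. Capitals mark CCAAT, read on either strand (ATTGG on the other), the letters bound by NF-Y, and CACCCCAC, a core of the sterol regulatory element, likewise on either strand.
Hmgcs1: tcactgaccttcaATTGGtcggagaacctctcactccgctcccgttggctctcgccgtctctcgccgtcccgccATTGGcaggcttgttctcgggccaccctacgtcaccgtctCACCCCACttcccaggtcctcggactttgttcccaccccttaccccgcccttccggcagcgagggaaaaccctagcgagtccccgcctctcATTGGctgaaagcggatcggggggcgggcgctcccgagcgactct
Srebf2: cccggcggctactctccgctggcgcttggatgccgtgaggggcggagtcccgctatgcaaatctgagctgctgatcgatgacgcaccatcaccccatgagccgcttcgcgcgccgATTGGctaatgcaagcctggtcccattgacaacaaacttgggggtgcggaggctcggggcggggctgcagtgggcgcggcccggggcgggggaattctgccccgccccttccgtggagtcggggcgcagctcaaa
Ebp: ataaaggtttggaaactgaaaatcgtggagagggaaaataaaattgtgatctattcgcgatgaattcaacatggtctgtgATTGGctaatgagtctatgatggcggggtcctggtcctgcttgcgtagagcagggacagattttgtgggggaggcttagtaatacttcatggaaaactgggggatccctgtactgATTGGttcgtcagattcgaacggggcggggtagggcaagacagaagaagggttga
The windows lie at chr13:119690101-119690350 (+ strand), chr15:82147019-82147268 (+ strand) and chrX:8193513-8193762 (- strand). The Hmgcs1 window held CCAAT 3 times and CACCCCAC 1 time, the Ebp window held CCAAT 2 times, and the Srebf2 window held it 1 time. Counts of motifs run over the listed genes that have a window in the table, Pmvk, Acat2 and Srebf1 among them although their expression is not analysed. Over windows of 300 bases, 250 before the start and 50 after it, CCAAT was found in 16 of 17 sterol genes and in 8 of 12 fatty acid genes, against 41.06% of all 27025 genes. GGGCGG, the letters of an Sp1 site, was found in 16 of 17 sterol genes and 6 of 12 fatty acid genes, against 38.2% of all genes. CACGTG, an E-box, was found in 4 of 17 and 1 of 12, against 8.09%. CACCCCAC was found in 2 sterol genes (Hmgcs1 and Acat2) and in 1 fatty acid gene (Gpam), against 3.3% of all genes, and the longer TCACCCCAC, which contains it, in Hmgcs1 alone, against 0.61%. These matches describe letters in a window and are no measure of binding.

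Expression is given as log2 values, so that a difference of 1 is a doubling, and each tissue has its own scale because the tissues were normalized apart. For testing, a gene's brightest probe set had to lie above the median of that tissue's values in at least 5 arrays. A member is called higher or lower when limma's moderated test, adjusted by Benjamini-Hochberg over all genes tested in the tissue, gave a p under 0.05. Between 29 and 32 members were tested per tissue. Hsd17b7 was not tested in spleen and blood, Pnpla3 was tested in both lymph nodes and brain only, and Angptl8 in jejunum, kidney and mesenteric lymph node only. The array controls for hybridisation, RNA added in fixed amounts, differed between groups in some tissues: in jejunum they were lower than vehicle in all 5 other groups (11.78 to 11.95 under DMF179.2 against 11.97 to 12.03 in vehicle), and in the Nav group they were higher than vehicle in kidney and mesenteric node. Nqo1 rose under DMF179.2 in all 7 tissues, by 0.84 ± 0.20 (SE, adjusted p = 0.0270) in blood to 1.98 ± 0.13 (adjusted p = 8.2e-15) in mesenteric node, and under MEF79.2 it passed the test in jejunum, kidney and mesenteric node. In mesenteric node DMF179.2 replicate 23 stood apart, with a mean correlation of 0.949 to the other arrays of its group against 0.965 for the next lowest array and a median of 0.985, and results there are given without it too. Nav replicate 40 had the lowest correlation in inguinal node, spleen and blood.

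Over 5 groups against vehicle and 7 tissues, 98 of 1070 tests of a member were called, 65 higher and 33 lower. That is 9.16% of the members' tests, beside 8.2% of the tests of all genes. Kidney held 45 of these calls (29% of the members' tests there, beside 23.8% for all genes), mesenteric node 25 (15.6% beside 15.6%), jejunum 14 (9.03% beside 8.04%), spleen 13 (8.97% beside 7.73%) and brain 1 (0.645% beside 1.19%). Inguinal node and blood held none, beside 0.428% and 0.324%. The order of the tissues by calls among the members was thus that of all genes. Under the higher DMF dose, calls among the sterol genes were all lower in jejunum, all higher in kidney and mesenteric node, and 5 higher and 1 lower in spleen. Fasn and Thrsp were called in no tissue and no group.

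**Figure D1:**
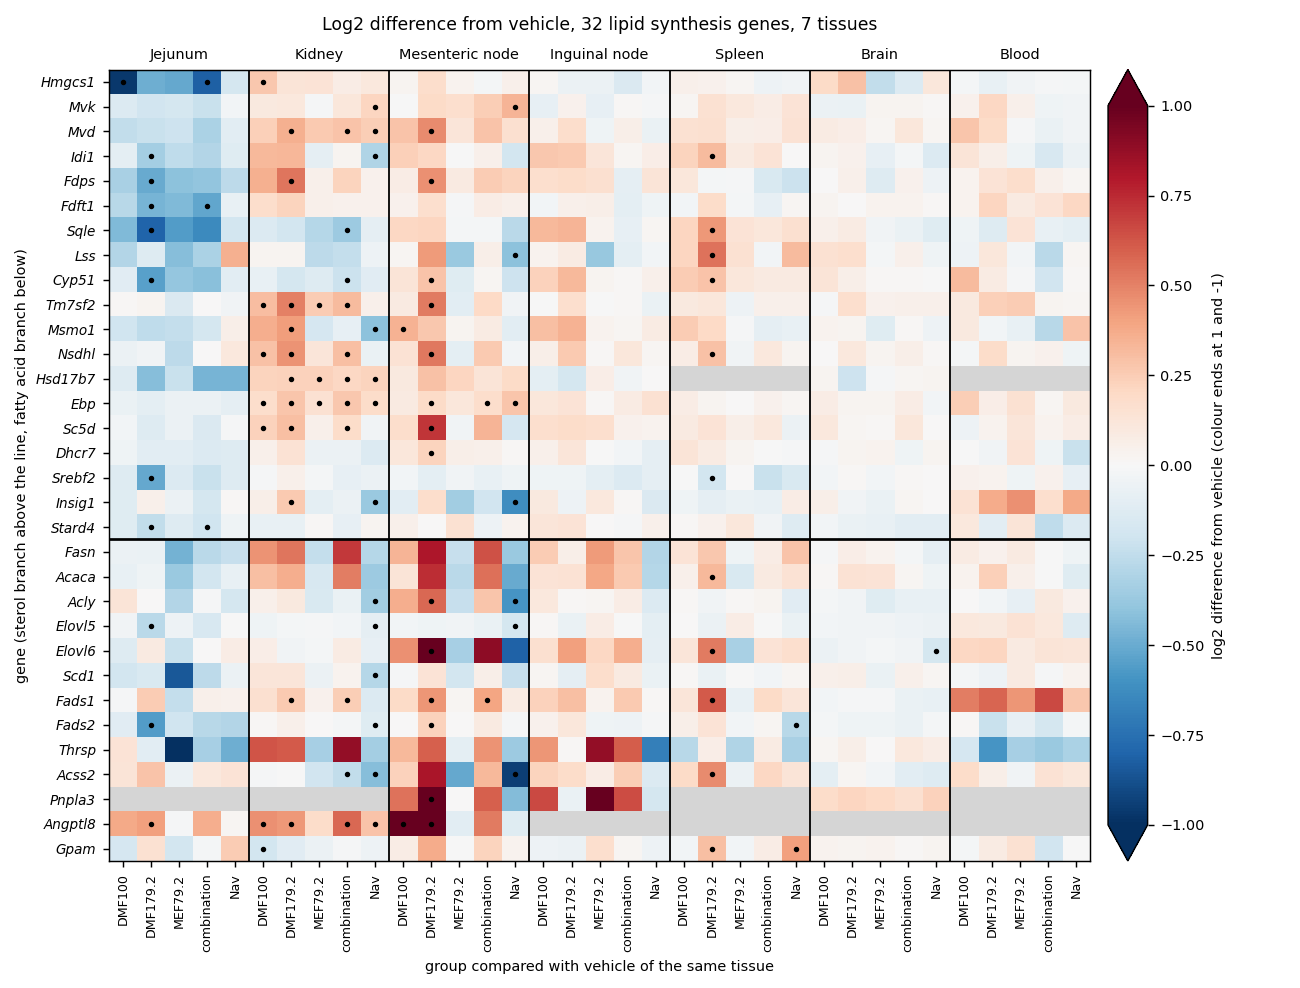
Log2 difference from vehicle of 32 genes (vertical axis, sterol branch above the line) in 5 groups and 7 tissues (horizontal axis). Blue is lower and red higher than vehicle, colours end at 1 and -1, black dots mark called differences and grey cells were not tested. The jejunum columns are mostly blue in the sterol branch, and the kidney, mesenteric node and spleen columns of DMF179.2 are mostly red.

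In jejunum, calls among the sterol genes under DMF179.2 were all lower than vehicle. Of 19 sterol genes tested, 7 were called lower and none higher, where 27.4% of all genes tested were called (15.6% higher and 11.8% lower). They were Sqle, which makes squalene epoxide (-0.80 ± 0.24, SE), Cyp51, the lanosterol demethylase (-0.54 ± 0.15), Srebf2 (-0.51 ± 0.09), Fdps, which makes farnesyl diphosphate (-0.50 ± 0.19), Fdft1, the squalene synthase (-0.46 ± 0.15), Idi1, the isoprenoid isomerase (-0.34 ± 0.13), and Stard4, a sterol carrier (-0.24 ± 0.06). The median over the sterol genes was -0.24, with 2 of 19 above 0, beside a median of 0.02 over all genes tested. In the fatty acid branch 2 of 12 genes were lower and 1 was higher, with a median of -0.02. The 2 lower genes, Fads2 (-0.55 ± 0.13) and Elovl5 (-0.27 ± 0.06), belong to the route that lengthens and desaturates polyunsaturated fatty acids, and the higher one was Angptl8, an insulin-responsive regulator of lipoprotein lipase (0.41 ± 0.14). After centring every array on its own median, the calls of both branches were 3 higher and 7 lower in place of 1 and 9, with 3 higher and 2 lower in the fatty acid branch, where quantile normalization gave 2 and 2. Without vehicle replicate 6 or 7 the fatty acid branch had 5 calls in place of 3. With 1 array left out at a time, Fdps kept its call in 7 of 15 fits and Idi1 in 8 of 15. Sqle, Cyp51, Srebf2, Fdft1 and Stard4 kept theirs in all 15. Under the alternative settings Idi1 kept its call in 2 of 7 and Fdps in 5 of 7. For Stard4, 1 of its 2 other probe sets differed in the opposite direction.

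Srebf2 in jejunum ranged from 9.51 to 9.95 in the 8 vehicle arrays (median 9.75) and from 8.94 to 9.52 in the 7 DMF179.2 arrays (median 9.26). The groups overlapped at a single point, where the highest treated array reached just above the lowest vehicle array (adjusted p = 8.8e-05). Elovl5 ranged from 11.79 to 12.09 in vehicle (median 11.98) and from 11.47 to 11.81 under DMF179.2 (median 11.73; adjusted p = 0.00109). Fads2 ranged from 9.88 to 10.51 in vehicle (median 10.10) and from 9.21 to 9.85 under DMF179.2 (median 9.68; adjusted p = 0.00138). For Fads2 the groups did not overlap. Sqle ranged from 8.08 to 9.52 in vehicle (median 9.38) and from 7.92 to 8.73 under DMF179.2 (median 8.31; adjusted p = 0.0127). The vehicle arrays at 8.08 and 8.64 lay inside the treated range.

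In jejunum Hmgcs1, which makes HMG-CoA, was the one member called under DMF100 (-0.96 ± 0.21, adjusted p = 0.00874), where 0.996% of all genes were called (0.286% lower). It ranged from 6.71 to 8.19 in vehicle (median 7.27) and from 5.94 to 6.81 under DMF100 (median 6.36), with 6.08 to 6.96 under the combination (median 6.50) and 6.46 to 7.54 under DMF179.2 (median 6.81). Under the combination Hmgcs1 (-0.81 ± 0.19), Fdft1 (-0.52 ± 0.14) and Stard4 (-0.20 ± 0.06) were called lower, where 3.84% of all genes were called (1.62% lower). Under DMF179.2 its difference of -0.49 did not pass the test (adjusted p = 0.0660). It has 1 probe set under the naming rule. The list of B-cell markers, 6 genes, had a mean of 4.08 to 6.86 under DMF100 and 4.18 to 7.17 under the combination against 3.73 to 6.36 in vehicle (differences of 1.49 and 1.77, exact permutation p = 0.0153 and 0.00389, adjusted p = 0.0919 and 0.0350), and its part in the Hmgcs1 differences was not tested. Fitted on the DMF100 and vehicle arrays alone, the call under DMF100 was lost, and with the hybridisation controls as a covariate all 3 calls under the combination were lost.

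Under MEF79.2 no member was called in jejunum (limma, 31 tested), where 0.111% of all genes were called. At an unadjusted p under 0.05, 10 members were lower and none higher, beside 1360 of 10847 genes in either direction. The median of the sterol genes was -0.22 with 0 of 19 above 0. The largest differences were those of Thrsp (-1.03) and Scd1, the stearoyl-CoA desaturase (-0.85), with adjusted p of 0.530 and 0.422. Under Nav no member was called, where 7.87% of all genes were called. There 4 of 31 members had an unadjusted p under 0.05, beside 2860 of 10847 genes.

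Other markers moved with the DMF179.2 group in jejunum. The list of ileal enterocyte markers, 5 genes tested, had a mean of 6.55 to 11.21 under DMF179.2 and 8.70 to 11.39 in vehicle (difference -2.32, exact permutation p = 0.00606, two-sided, adjusted p = 0.0455), led by Fabp6 (-5.23). The list of crypt markers, 7 genes, ranged from 8.05 to 8.58 against 8.49 to 8.92 (-0.37, exact permutation p = 0.00109, adjusted p = 0.0122), with Lgr5 at -1.33. The single DMF179.2 array with an ileal list mean within the vehicle range, replicate 24 at 11.21, had Srebf2 at 8.97, Sqle at 8.73 and Fads2 at 9.50. In that array Srebf2 and Fads2 were below every vehicle array. Its Sqle and Cyp51 (10.66) were the highest of the DMF179.2 group and lay inside the vehicle range. Elovl5, at 11.795, lay inside that range too. When the hybridisation control signal entered the fit, 3 sterol genes in place of 7 were called. Whether the position of the jejunum sample, crypt content or hybridisation had a part in the sterol differences was not tested further. In bulk tissue, fewer cells of a type and less RNA per cell cannot be told apart.

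**Figure D2:**
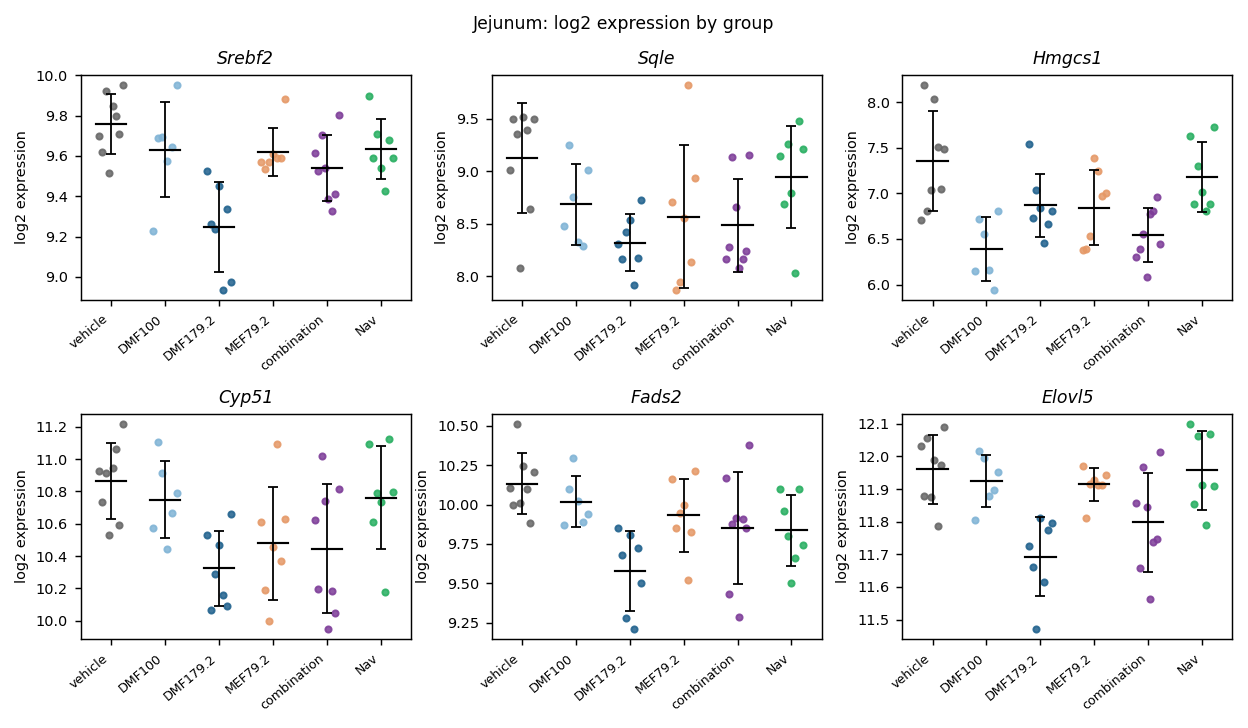
Log2 expression (vertical axis) of 6 members in jejunum by group (horizontal axis), each point 1 array, with the mean and SD as bars. Srebf2, Fads2 and Elovl5 are lowest under DMF179.2, and Hmgcs1 is lowest under DMF100, between 5.94 and 6.81.

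In kidney, Ebp and Tm7sf2, which act late in sterol synthesis, were called higher in all 4 fumarate groups. Under DMF179.2, 9 of 19 sterol genes were called higher and none lower, where 16.7% of all genes were called (10.6% higher), and the median was 0.23 beside 0.01 over all genes tested. In the early route these were Fdps (0.53 ± 0.15) and Mvd, the mevalonate diphosphate decarboxylase (0.35 ± 0.10). In the late route they were Tm7sf2, a sterol reductase (0.51 ± 0.07), Nsdhl, a sterol dehydrogenase (0.45 ± 0.09), Msmo1, the methylsterol oxidase (0.42 ± 0.15), Sc5d, the lathosterol desaturase (0.30 ± 0.06), Ebp (0.28 ± 0.04) and Hsd17b7, a ketosteroid reductase (0.23 ± 0.08). The last was Insig1 (0.26 ± 0.09), the brake on SREBP2. For Sc5d the other 2 probe sets differed from vehicle in the opposite direction. Angptl8 (0.43 ± 0.11) and Fads1, a desaturase (0.26 ± 0.08), were higher in the fatty acid branch, 2 of 12 genes. Fitted on the 2 groups alone, Fdps, Msmo1, Hsd17b7, Insig1 and Fads1 were not called, and with the mean of its probe sets Sc5d was not.

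Under DMF100, 5 sterol genes were called higher (Tm7sf2 0.31, Nsdhl 0.29, Hmgcs1 0.27, Sc5d 0.23 and Ebp 0.17) together with Angptl8 (0.46), and Gpam, which starts glycerolipid synthesis, was lower (-0.19), where 8.09% of all genes were called (4.51% higher and 3.58% lower). With arrays centred, 7 were higher and none lower in place of 6 and 1. Under MEF79.2 the 3 called members were Tm7sf2 (0.25), Hsd17b7 (0.23) and Ebp (0.15), all higher, where 14.2% of all genes were called (8.75% higher). Hsd17b7 kept this call in 1 of 6 alternative settings, and 1 of its 2 other probe sets shared its direction. Under the combination 6 sterol genes were higher, with Tm7sf2 (0.32), Nsdhl (0.30), Mvd (0.29) and Ebp (0.27) in front of Hsd17b7 and Sc5d, and 2 were lower, Sqle (-0.37) and Cyp51 (-0.21), where 30.3% of all genes were called (17.7% higher and 12.6% lower). Hsd17b7 kept its call under the combination in 2 of 6 alternative settings, and again 1 of its 2 other probe sets shared its direction. For Sc5d too, 1 of its 2 other probe sets shared its direction under DMF100 and under the combination. With the mean of its probe sets Sc5d was called under neither. In the fatty acid branch the combination had Angptl8 (0.58) and Fads1 (0.25) higher and Acss2, the acetyl-CoA synthetase of the cytosol, lower (-0.24). Under Nav 13 members were called, 5 higher and 8 lower, where 49.8% of all genes were called (30% higher and 19.8% lower). Among the lower ones were Acss2 (-0.42), Msmo1 (-0.41), Insig1 (-0.37), Acly, the ATP citrate lyase (-0.35), and Scd1 (-0.28), and among the higher ones Ebp (0.19) and Angptl8 (0.28). For Acly, Msmo1 and Fads2 (-0.12) the other probe sets differed in the opposite direction, and with arrays centred the calls were 3 higher and 8 lower.

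Ebp in kidney ranged from 10.29 to 10.51 in the 7 vehicle arrays (median 10.40), from 10.60 to 10.76 under DMF179.2 (median 10.70; adjusted p = 5.0e-07), from 10.62 to 10.82 under the combination (median 10.65) and from 10.53 to 10.72 under DMF100 (median 10.58). None of these 3 groups overlapped with vehicle. Under MEF79.2 it ranged from 10.48 to 10.65 (median 10.59) and under Nav from 10.50 to 10.66 (median 10.62), both overlapping the top of the vehicle range. Tm7sf2 ranged from 8.51 to 8.98 in vehicle (median 8.75) and from 9.03 to 9.76 under DMF179.2 (median 9.12; adjusted p = 2.3e-06), again without overlap. Acss2 ranged from 10.70 to 10.99 in vehicle (median 10.75) and from 10.26 to 10.51 under Nav (median 10.36; adjusted p = 1.4e-05), and no Nav array reached the lowest vehicle array.

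The kidney libraries also differed in genes known from liver. The list of hepatocyte markers, 5 genes that all lay above the filter in vehicle kidney, had a mean of 9.33 to 9.70 under DMF179.2 and 8.43 to 8.80 in vehicle (difference 0.88, exact permutation p = 0.000155, adjusted p = 0.00466), and it was higher without overlap in all 4 treatments. Serpina1a (1.76), Ttr (1.14) and Alb (0.74) rose under DMF179.2. Its part in the sterol differences was not tested. Leaving out vehicle replicate 8 left 7 called members of both branches in place of 11 under DMF179.2, without Fads1, Hsd17b7, Insig1 and Msmo1. In the fatty acid branch 1 of the 2 calls was left without DMF179.2 replicate 19 or vehicle replicate 8.

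**Figure D3:**
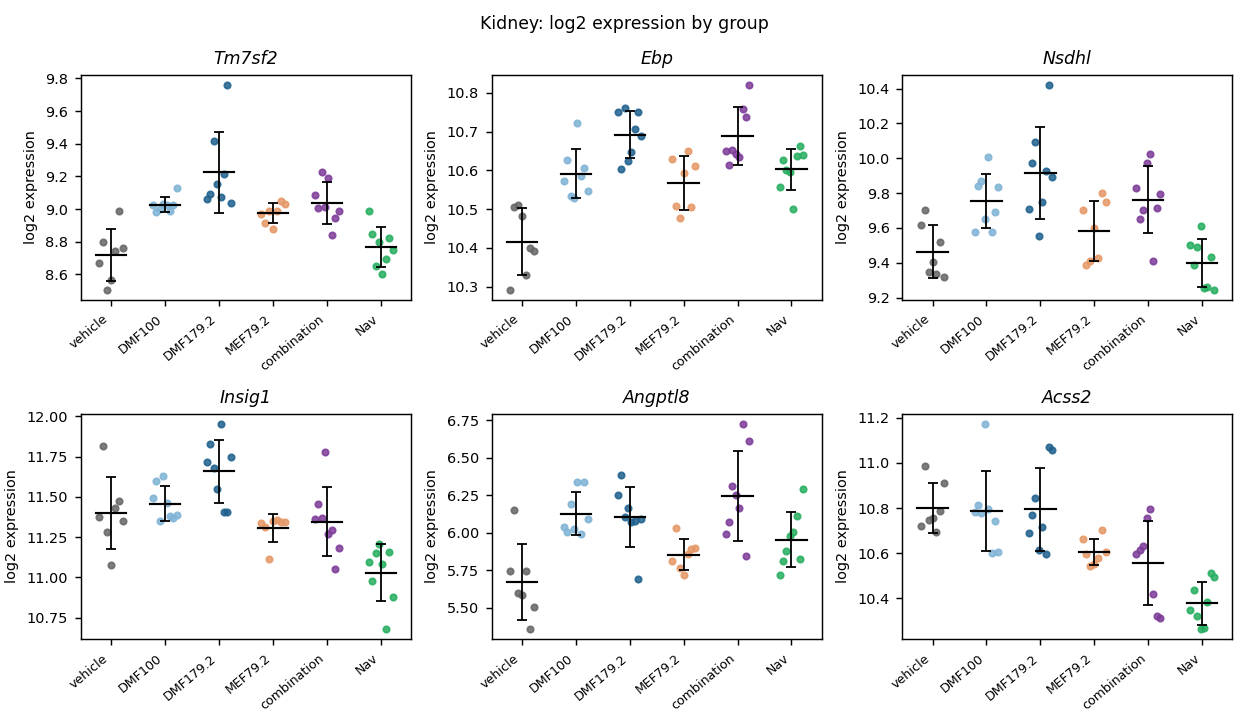
Log2 expression (vertical axis) of 6 members in kidney by group (horizontal axis), each point 1 array, with the mean and SD as bars. Every DMF179.2 array of Ebp and Tm7sf2 lies above every vehicle array, and Acss2 is lowest under Nav.

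In mesenteric lymph node, genes of both branches were called higher under DMF179.2. The sterol genes had 8 of 19 called higher and none lower, where 7.88% of all genes were called (6.15% higher), with a median of 0.22 beside 0.02 over all genes tested. They were Sc5d (0.72 ± 0.18), Nsdhl (0.53 ± 0.15), Tm7sf2 (0.52 ± 0.10), Mvd (0.47 ± 0.11), Fdps (0.46 ± 0.12), Cyp51 (0.28 ± 0.09), Dhcr7, the last reductase before cholesterol (0.22 ± 0.07), and Ebp (0.19 ± 0.05). The fatty acid branch had 6 of 13 called higher and none lower, and its median was 0.60. They were Angptl8 (1.27 ± 0.34), Elovl6, which extends palmitate (1.22 ± 0.38), Pnpla3, a lipid droplet acyltransferase and lipase (1.08 ± 0.33), Acly (0.57 ± 0.17), Fads1 (0.44 ± 0.12) and Fads2 (0.23 ± 0.06). Fasn, the fatty acid synthase, had a difference of 0.81 with an adjusted p of 0.0565.

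The values of this node varied widely between arrays. Tm7sf2 ranged from 7.07 to 7.69 in vehicle (median 7.41) and from 7.36 to 8.50 under DMF179.2 (median 7.74; adjusted p = 0.00194). Its 3 highest DMF179.2 arrays, replicates 18, 19 and 23 at 8.30, 8.18 and 8.50, all lay above the highest vehicle array. Elovl6 ranged from 7.94 to 11.003 in vehicle (median 9.81) and from 10.14 to 11.89 under DMF179.2 (median 10.62; adjusted p = 0.0384), and the same 3 arrays were the highest at 11.82, 11.66 and 11.89. Angptl8 ranged from 4.93 to 6.67 in vehicle (median 5.65), from 5.76 to 8.70 under DMF179.2 (median 6.45) and from 5.86 to 7.58 under DMF100 (median 7.13). In vehicle, Elovl6 was lowest in replicates 3 and 8, at 7.94 and 8.53.

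The list of adipocyte markers, 12 genes of which 8 had a probe set and 6 were tested, held Fabp4 at a mean of 13.17 and Adipoq at 11.90 in vehicle, while Pck1 sat at the lowest value of the tissue in all 8 vehicle arrays. The mean over the 8 genes ranged from 8.02 to 8.94 under DMF179.2 and from 7.48 to 8.79 in vehicle (difference 0.32, exact permutation p = 0.132, adjusted p = 0.504). DMF179.2 replicates 18, 19 and 23 had list means of 8.86, 8.94 and 8.63, and vehicle replicates 1, 3 and 8 had 7.48, 7.72 and 7.97. Replicate 21 of DMF179.2, at 8.75, lay above replicate 23, with Elovl6 at 10.52 and Tm7sf2 at 7.74. Vehicle replicates 4 and 7 were at 8.78 and 8.79, with Elovl6 at 10.34 and 11.003. Under DMF100, where the list mean differed from vehicle by -0.005, Angptl8 was called higher (1.36 ± 0.34, adjusted p = 0.0267). Markers of other cells moved in the same group. The B-cell list, 6 genes, had a mean of 9.21 to 10.04 under DMF179.2 and 9.87 to 10.14 in vehicle (difference -0.23, exact permutation p = 0.0115, adjusted p = 0.235), and Cr2 (-0.42) and Cd22 (-0.36) were called lower. Replicates 18, 19 and 23 had the 3 lowest B-cell means of the group, 9.67, 9.79 and 9.21, all below the lowest vehicle array. The neutrophil list, 5 genes, differed by 0.46 (5.05 to 5.91 against 4.62 to 5.22, exact permutation p = 0.00155, adjusted p = 0.0699), with Mmp9 called higher (0.62), and the macrophage gene Cd68 was called higher too (0.32). The part of fat tissue and of these cells in the DMF179.2 differences was not tested.

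These counts rested on few arrays. Of the 14 calls, 5 were left without DMF179.2 replicate 23, 6 without replicate 18 and 7 without replicate 19, and 8 or 9 were left without vehicle replicates 1, 3, 5 or 8. In the fatty acid branch the 6 calls became 0 without DMF179.2 replicate 23, 1 without replicate 18, 2 without replicate 19 or vehicle replicate 1, 3 without vehicle replicate 3 or 8, and 10 without DMF179.2 replicate 17 or 24 or vehicle replicate 7. In the sterol branch 5 of the 8 calls were left without DMF179.2 replicate 18, 19 or 23 or vehicle replicate 3 or 5. Sc5d, Mvd, Tm7sf2, Fdps and Ebp were called in all 16 fits that left out 1 array. Fitted on the 2 groups alone, 4 of the 14 calls were left, those of Tm7sf2, Mvd, Ebp and Fads1.

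The other groups showed few calls in this node. Under DMF100 Angptl8 and Msmo1 (0.35 ± 0.10) were higher, where 1.85% of all genes were called (1.35% higher). Msmo1 kept this call in 2 of 7 alternative settings and Angptl8 in 6. Under the combination Fads1 (0.40 ± 0.13) and Ebp (0.18 ± 0.05) were higher, where 12.7% were called (9.16% higher). Fads1 kept this call in 3 of 7 alternative settings and Ebp in all 7. Under MEF79.2 no member was called by limma, where 4.75% were called, and 5 of 32 had an unadjusted p under 0.05, beside 2335 of 10671 genes. Under Nav 2 members were higher, Mvk, the mevalonate kinase (0.34 ± 0.09), and Ebp (0.28 ± 0.05), and 5 were lower, where 50.6% were called (29.8% higher and 20.8% lower). The lower ones were Acss2 (-0.94 ± 0.29), Insig1 (-0.62 ± 0.13), Acly (-0.59 ± 0.17), Lss, the lanosterol synthase (-0.41 ± 0.17), and Elovl5 (-0.18 ± 0.06). Insig1 ranged from 10.53 to 11.27 under Nav (median 10.79) and from 11.09 to 11.89 in vehicle (median 11.39; adjusted p = 9.3e-05), and Ebp from 9.45 to 9.75 (median 9.51) against 9.17 to 9.41 (median 9.29; adjusted p = 5.7e-06), the latter without overlap. With the hybridisation controls as a covariate, the calls of Acss2, Acly, Lss and Mvk were lost, and Lss then differed by -0.12 (adjusted p = 0.714). Leaving out Nav replicate 40 gave 12 calls in place of 7. Marker genes called in the Nav group of this node included Lep (1.202), Plin4 (0.93) and Lipe (0.71) of fat cells, S100a9 of neutrophils (1.39) and Cd68 of macrophages (0.51). Of the B-cell genes, Ms4a1 was called lower (-0.58) and Cd79a higher (0.25). The part of these cells in the Nav differences was not tested.

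**Figure D4:**
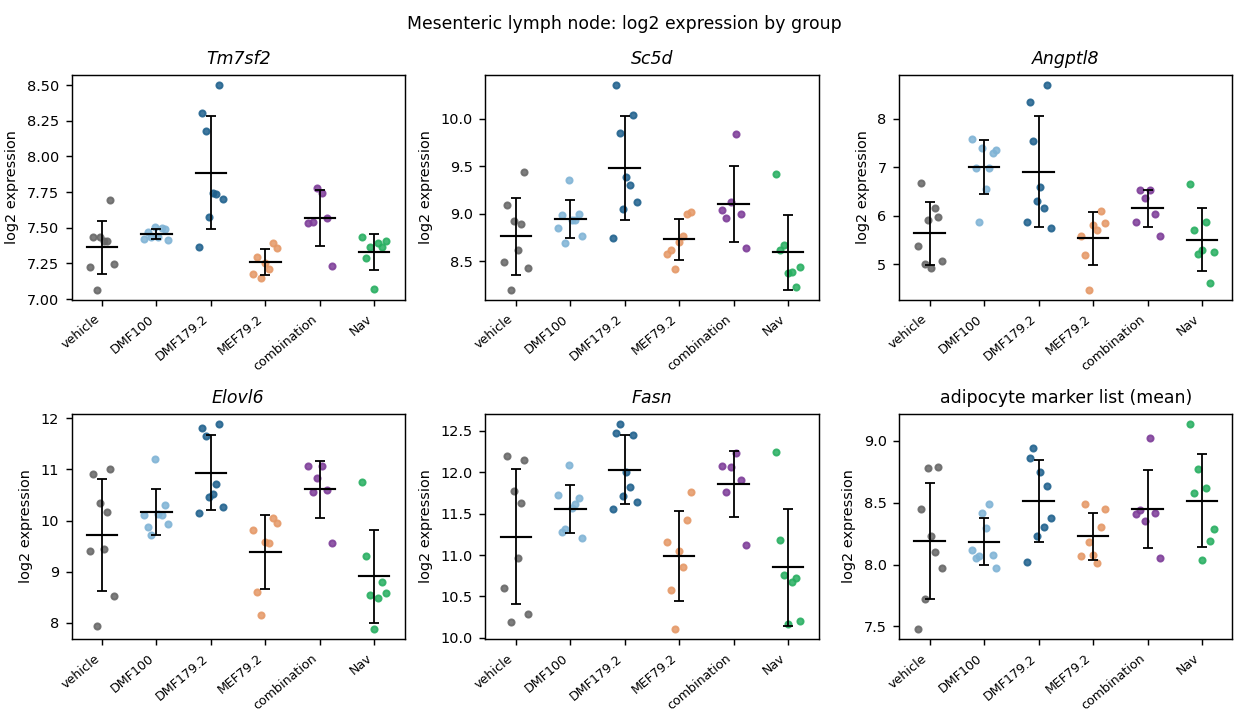
Log2 expression (vertical axis) of 5 members and the mean of the adipocyte marker list in mesenteric lymph node by group (horizontal axis), each point 1 array, with the mean and SD as bars. The 3 highest DMF179.2 arrays of Tm7sf2, Elovl6 and Fasn are the same 3 arrays, with adipocyte list means of 8.86, 8.94 and 8.63. The other DMF179.2 arrays reach a list mean of 8.75, and the vehicle arrays reach 8.79.

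In spleen, 10 members were called higher and 1 lower under DMF179.2. Of 18 sterol genes 5 were higher, Lss (0.54 ± 0.16), Sqle (0.43 ± 0.12), Idi1 (0.32 ± 0.10), Nsdhl (0.29 ± 0.10) and Cyp51 (0.29 ± 0.11), and Srebf2 was lower (-0.18 ± 0.07), where 24.4% of all genes were called (16.9% higher and 7.54% lower). With arrays centred, 7 sterol genes were higher and none lower. The median of the sterol genes was 0.14 beside 0.04 over all genes tested. Of 11 fatty acid genes 5 were higher and none lower, namely Fads1 (0.61 ± 0.10), Elovl6 (0.52 ± 0.17), Acss2 (0.47 ± 0.11), Acaca, the acetyl-CoA carboxylase (0.33 ± 0.11), and Gpam (0.30 ± 0.08), and the median was 0.27. For Acaca and Gpam the other probe set differed in the opposite direction. For Elovl6, 1 of its 2 other probe sets did, and with the mean of its probe sets its difference was 0.04 (adjusted p = 0.611). Fitted on the 2 groups alone, Idi1, Cyp51 and Srebf2 were not called. Sqle, Cyp51 and Idi1 were thus called lower in jejunum and higher in spleen, both under DMF179.2, and of the 3 only Sqle kept both calls under all 7 alternative settings run on the whole groups.

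Fads1 in spleen ranged from 7.58 to 8.08 in vehicle (median 7.78) and from 8.18 to 8.76 under DMF179.2 (median 8.40; adjusted p = 0.000328), with no overlap. Acss2 ranged from 9.29 to 9.85 in vehicle (median 9.42) and from 9.66 to 10.21 under DMF179.2 (median 9.93; adjusted p = 0.00261). Gpam ranged from 8.76 to 9.08 in vehicle (median 8.87), from 8.90 to 9.43 under DMF179.2 (median 9.19) and from 8.97 to 9.47 under Nav (median 9.40; adjusted p = 0.00440). Under Nav Gpam was higher (0.41 ± 0.08) and Fads2 lower (-0.28 ± 0.09), where 13.4% of all genes were called (8.07% higher and 5.31% lower). Under DMF100, MEF79.2 and the combination no member was called by limma, where 0.834%, 0% and 0.0284% of all genes were called, and 4, 1 and 1 of 29 members had an unadjusted p under 0.05. Beside them, 1342, 562 and 807 of 10549 genes had such a p.

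The list of erythroid markers, 9 genes tested, had a mean of 9.30 to 10.65 under DMF179.2 and 5.93 to 10.02 in vehicle (difference 1.82, exact permutation p = 0.00357, adjusted p = 0.105), with differences of 2.67 for Kel and 2.41 for Tfr2. The difference between 3' and 5' control probe sets, a measure of RNA integrity, ranged from 1.19 to 1.51 against 1.10 to 1.28 (exact permutation p = 0.00218, adjusted p = 0.105). The 2 vehicle arrays whose erythroid mean lay in the treated range, replicates 6 and 7 at 9.69 and 10.02, had the 2 highest vehicle values of Fads1, 8.05 and 8.08, and the 2 highest of Acss2, 9.85 and 9.48. For Sqle, vehicle replicate 1 was the highest at 7.92, and these arrays were at 7.81 and 7.57. The next highest Acss2 in vehicle, 9.43, was in replicate 8, whose erythroid mean of 5.93 was the lowest of that group. The part of the erythroid cells and of RNA integrity in the differences was not tested further. Of the 11 calls, 7 were left without DMF179.2 replicate 18 or 23 or vehicle replicate 3. Of the 5 fatty acid calls, 3 were left without DMF179.2 replicate 18, 21 or 23, and of the 6 sterol calls 3 were left without vehicle replicate 3.

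Inguinal node, blood and brain held 1 call in all. In inguinal node no member was called in any group (limma, 31 tested), where 1.69% of all genes were called for DMF100, 0.379% for DMF179.2, 0.00947% for MEF79.2, 0.0474% for the combination and 0.0189% for Nav. At an unadjusted p under 0.05, 9 members were higher and none lower under DMF179.2, beside 1177 of 10559 genes in either direction. Under DMF100 6 members were higher, beside 1514 genes in either direction. The smallest adjusted p was that of Idi1 under DMF100 (0.27, adjusted p = 0.0992). In blood no member of 29 was called in any group, where 0.26%, 1.34%, 0%, 0% and 0.0193% of all genes were called in the same order, and 4, 3, 3, 1 and 1 members had an unadjusted p under 0.05 under DMF179.2, DMF100, MEF79.2, the combination and Nav. In that last order, 1651, 1046, 1149, 775 and 1356 of 10378 genes had such a p. Fads1 under DMF179.2 came nearest (0.58, adjusted p = 0.0612).

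In brain, which makes its own cholesterol, Elovl6 was lower under Nav (-0.17 ± 0.05, adjusted p = 0.0313), where 3.83% of all genes were called (1.78% lower). It ranged from 9.86 to 10.15 in vehicle (median 10.02) and from 9.72 to 9.92 under Nav (median 9.87). With the mean of its probe sets the difference was -0.10 and not called (adjusted p = 0.340), and 1 of its 2 other probe sets differed in the opposite direction. No member was called under DMF100, DMF179.2, MEF79.2 or the combination, where 0.4%, 1.09%, 0.362% and 0.297% of all genes were called, and 3, 3, 3 and 2 of 31 members had an unadjusted p under 0.05. Beside them, 789, 1670, 1926 and 1596 of 10763 genes had such a p. Under DMF179.2 the sterol genes lay between -0.21 and 0.29, and the largest was Hmgcs1 (0.29, adjusted p = 0.0952).

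The regulators and the enzymes named for their place in the routes behaved as follows across tissues. Srebf2 differed from vehicle by -0.10 to 0.05 under DMF179.2 in kidney, both nodes, brain and blood, against -0.51 in jejunum and -0.18 in spleen. Insig1, itself a target of the SREBP factors, was called higher in kidney under DMF179.2 and lower under Nav in kidney and mesenteric node, and in jejunum it stayed at 0.05 under DMF179.2 (adjusted p = 0.756), where Srebf2 and Sqle were called lower. Fasn had differences of 0.45 to 0.70 in kidney under DMF100, DMF179.2 and the combination, with adjusted p of 0.411, 0.247 and 0.0797. Scd1 was called in kidney under Nav and nowhere else.

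**Figure D5:**
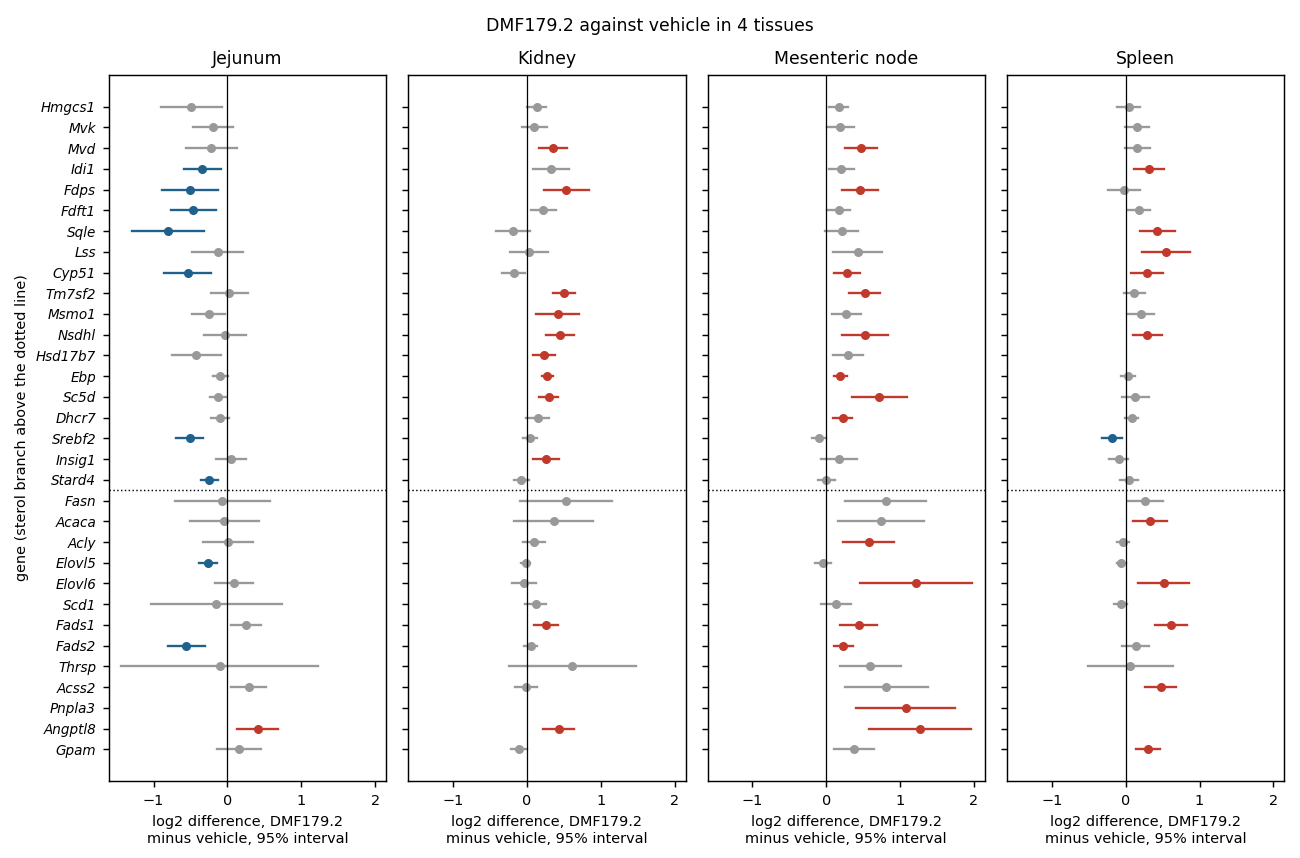
Log2 difference between DMF179.2 and vehicle (horizontal axis) with its 95% interval for each member (vertical axis) in 4 tissues. Red points were called higher, blue points lower and grey points were not called. Sqle lies at -0.80 in jejunum and at 0.43 in spleen, and Tm7sf2 at 0.51 in kidney and 0.52 in mesenteric node.

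The responses were then set against each other across tissues in a single fit over 7849 genes tested in all of them, with 29 members (18 sterol, 11 fatty acid). This F test asks whether the difference from vehicle is the same in the 7 tissues. Under DMF179.2, 22 members differed among tissues, 16 sterol and 6 fatty acid genes, where 35.1% of all genes did. Srebf2 (F = 9.65, adjusted p = 1.5e-07), Fads2 (F = 9.44, adjusted p = 2.2e-07), Sqle and Cyp51 had the smallest p. The counts were 1 under DMF100 (Hmgcs1, where 3.52% of all genes were called), 4 under MEF79.2 (9.28%), 8 under the combination (16.1%) and 7 under Nav (61.1%).

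The jejunum response to DMF179.2 was lower than that of each other tissue for part of the sterol genes, and for none was it higher. Of 18 sterol genes it was lower than in mesenteric node for 15, where 11% of all genes were lower, than in kidney for 12 (7.05%), than in inguinal node for 10 (6.98%), than in spleen for 8 (7.21%), than in blood for 7 (8.41%) and than in brain for 6 (6.47%). In the fatty acid branch it was lower for 2 to 4 of 11 genes, always including Elovl5 and Fads2. Sqle, Srebf2, Fdft1 and Hmgcs1 were lower against all 6 other tissues, though Hmgcs1 had not passed the test under DMF179.2 within jejunum. In blood the Hmgcs1 probe set held the single value 3.544 in 6 of 7 vehicle and 6 of 8 DMF179.2 arrays. The contrast of Hmgcs1 with blood thus carries little beyond the jejunum difference itself. For Sqle the gap was widest against spleen (-1.23 ± 0.20, adjusted p = 5.9e-07) and narrowest against kidney (-0.62 ± 0.20, adjusted p = 0.0254). These contrasts share the jejunum arrays. The fit takes a single spread per gene for all tissues. For Sqle and Fdft1 the SE was thus smaller than that of the jejunum difference fitted in jejunum alone. Where a gene varies more in jejunum, the counts may be overstated.

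Doses and mixtures were compared directly within a tissue. The higher DMF dose gave lower values than DMF100 in jejunum, where 11.6% of all genes were called (4.78% lower), for Srebf2 (-0.39 ± 0.10, adjusted p = 0.00997), Fads2 (-0.44 ± 0.14, adjusted p = 0.0295) and Elovl5 (-0.23 ± 0.06, adjusted p = 0.0172), and with arrays centred 1 further member was higher. In mesenteric node it gave a higher value of Tm7sf2 (0.43 ± 0.10, adjusted p = 0.0445, 0.59% of all genes called and 0.459% called higher), and in spleen (2.56% called, 1.76% higher) of Fads1 (0.49 ± 0.11, adjusted p = 0.0312) and Gpam (0.33 ± 0.08, adjusted p = 0.0359). Fitted on the 2 groups alone, the calls of Srebf2 in jejunum, Tm7sf2 in mesenteric node and both genes in spleen were lost. The calls of Fads2 and Elovl5 in jejunum were lost with the mean of probe sets, and that of Tm7sf2 also without the filter, with arrays centred and with array weights. Adding MEF salts to DMF100 changed 4 members in kidney, Gpam upward (0.17 ± 0.05) and Msmo1 (-0.45 ± 0.14), Acss2 (-0.23 ± 0.07) and Hmgcs1 (-0.19 ± 0.06) downward, where 14.6% of all genes were called (8.88% higher and 5.74% lower). That split was 1 higher and 3 lower, against 0 and 3 with arrays centred and 2 and 3 after quantile normalization, and no call was left when the 2 groups were fitted alone. DMF179.2 stood above the combination in kidney for Msmo1 (0.50 ± 0.14), Insig1 (0.32 ± 0.09) and Acss2 (0.24 ± 0.07), where 11.4% of all genes were called (6.44% higher), and in spleen (5.64% called, 4.1% higher) for Lss (0.57 ± 0.16), Fads1 (0.42 ± 0.11) and Fdft1 (0.26 ± 0.08). None of the 3 kidney calls was left when these 2 groups were fitted alone, and in spleen those of Lss and Fdft1 were lost without the filter. In the other 15 direct comparisons no member was called by limma, and 0 to 8 members had an unadjusted p under 0.05. Beside them, 555 of 10559 genes (inguinal node, DMF179.2 against the combination) to 2788 of 10671 (mesenteric node, the combination against DMF100) had such a p. Of all genes, 0% were called in jejunum for DMF179.2 against the combination and 0.157% for the combination against DMF100, 1.36% in kidney for DMF179.2 against DMF100, 0.00937% and 8.81% in mesenteric node for DMF179.2 against the combination and the combination against DMF100, 0% to 0.18% in inguinal node (0.00947% between the DMF doses), 0% in spleen for the combination against DMF100, 0.00929% to 0.0929% in brain (0.0186% between the DMF doses) and 0% in blood. DMF, a diester, and the MEF salts, of a monoester, were given at different doses and are set side by side only: in kidney Tm7sf2 differed from vehicle by 0.31 under DMF100 and 0.25 under MEF79.2, and Ebp by 0.17 and 0.15.

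Other genes of the pathways, taken from lists of related genes, were counted in the same fits. Of 15 further fatty acid genes tested in jejunum, 2 were higher and 5 lower under DMF179.2, where 27.4% of all genes were called. The malic enzyme Me1, which supplies NADPH and is a known NRF2 target, rose by 1.65 ± 0.37 (adjusted p = 0.00126), and Acsl3, an acyl-CoA synthetase, by 0.43 ± 0.14, while Elovl7 (-0.39 ± 0.11), Elovl1 (-0.31 ± 0.07), Mlx, Hsd17b12 and Lpin1 were lower. In kidney under DMF179.2, 5 of 16 were higher, among them Elovl2 (0.39 ± 0.09), Acsl3 (0.34 ± 0.07) and Me1 (0.21 ± 0.05), and 1 was lower, Elovl7 (-0.21 ± 0.05), where 16.7% of all genes were called. In mesenteric node, where 7.88% were called, 6 of 14 were higher and none lower, with Me1 (1.13 ± 0.36), Slc25a1, the citrate carrier (0.92 ± 0.28), and Dgat2, which makes triglyceride (0.89 ± 0.28), in front. In spleen, where 24.4% were called, 3 of 13 were higher, Me1 (0.62 ± 0.17), Acsl3 (0.56 ± 0.11) and Elovl1 (0.16 ± 0.05). Me1 and Acsl3 were thus called higher under DMF179.2 in all 4 tissues.

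Among further sterol genes, Mbtps1 and Mbtps2, the proteases that release active SREBP, were lower in kidney under DMF179.2 (both -0.24, with SE of 0.05 and 0.08), and 1 gene of 13 was higher, Npc2, a lysosomal sterol carrier (0.09 ± 0.03), where 16.7% of all genes were called. In jejunum (27.4% called) 1 of 14 was higher, Npc1l1, the sterol uptake transporter (0.18 ± 0.05), and 1 lower, Npc2 (-0.20 ± 0.04). In mesenteric node and spleen (7.88% and 24.4% called) 1 of 13 was higher in each, Rdh11 (0.38 ± 0.09) and Pcyt2 (0.36 ± 0.09). Of the genes driven by LXR, the sterol-sensing receptor that promotes sterol export, 2 of 7 were higher in jejunum under DMF179.2, the exporter Abcg8 (0.88 ± 0.17, adjusted p = 0.000262) and Nr1h3, which encodes LXR alpha (0.26 ± 0.10), and none was lower, a share near the 27.4% of all genes called there. In kidney Apoe rose in all 5 groups, with DMF179.2 at 0.62 ± 0.08, DMF100 at 0.43 ± 0.08, the combination at 0.71 ± 0.08, MEF79.2 at 0.48 ± 0.09 and Nav at 0.41 ± 0.08. Of 5 LXR-driven genes tested there, 2 were higher under DMF179.2 and under Nav, where 16.7% and 49.8% of all genes were called. Only Apoe was called under DMF100, MEF79.2 and the combination, where 8.09%, 14.2% and 30.3% of all genes were called.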

How the data were processed

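Log2 expression values of 45141 probe sets on 308 arrays were used as the authors deposited them. Per the submitters' processing notes, RMA, GCRMA, R 2.11.1 and limma 3.4.5 were used, with no step or order given, and the sources used here give no background step. Arrays of a tissue share their lowest value and this value differs between tissues, so tissues were treated as normalized apart and treatments were compared with vehicle within a tissue. Of the probe sets, 28898 carry 1 gene symbol in the gene table of the platform, 551 carry several and 15692 were not named. A gene was represented by its probe set of highest mean over all arrays and tested when that lay above the 50th percentile of the tissue in at least 5 arrays, which left 10378 to 10847 genes per tissue. From these values limma 3.58.1 in R 4.3.3 fitted 1 mean per group, and p-values were adjusted over all genes tested. Groups were taken from the sample titles. The number of arrays limits the precision, and between 18.48 and 23.35% of values sit at the lowest value of a tissue, which compresses low levels.

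Marker list means were compared by exact permutation tests, two-sided and adjusted over the 90 comparisons of a tissue. The response among tissues was tested by an F test that takes arrays as independent and the spread of a gene as equal in all tissues. The members, lists and tests were chosen with earlier results of these data known. Named genes are Hmgcs1, Sqle, Insig1, Srebf2, Fasn and Scd1, up to 6 called members per direction and branch by size of difference, levels for up to 3 per tissue by smallest adjusted p, up to 4 called genes of a further list by adjusted p, and up to 3 marker genes. Thrsp, Me1 and Acsl3 across tissues, members near the threshold in groups without calls, levels of Sqle and Hmgcs1 in jejunum and of Elovl6, Angptl8 and Gpam, the sterol members called under DMF179.2 beyond the 6 largest, the further fatty acid genes of jejunum beyond 4, and the arrays named by replicate were chosen after their values were seen. The fit was tested on simulated data. Alternatives were no filter, quantile normalization, array centring, the mean of probe sets, array weights, the 2 groups alone, the hybridisation controls as a covariate, the replicate block, and single arrays left out. Other background corrections were not run, since no scanner files were used. Promoter windows come from RefSeq, build GRCm38.p6.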

Additional observations from a re-analysis of the deposited data

Results flagged for a closer look

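The response to DMF179.2 differed among the 7 tissues for 22 of 29 members in the F test, to DMF100 for 1, to MEF79.2 for 4, to the combination for 8 and to Nav for 7, beside 35.1%, 3.52%, 9.28%, 16.1% and 61.1% of all genes.

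Single arrays stood far from the others of their group in 6 of 78 checks (Dixon's ratio over 13 pairs of member and tissue and 6 groups), where about 1 in 20 is flagged by chance. In jejunum under MEF79.2, Srebf2 was 9.88 in replicate 31 against 9.53 to 9.61 in the others, and Elovl5 was 11.81 in replicate 26 against 11.91 to 11.97. In kidney under DMF100, Tm7sf2 was 9.13 in replicate 16 against 8.98 to 9.03, and Acss2 was 11.17 in replicate 12 against 10.60 to 10.81. In mesenteric node under Nav, Tm7sf2 was 7.07 in replicate 44 against 7.29 to 7.44. In spleen, Acss2 was 9.85 in vehicle replicate 6 against 9.29 to 9.48.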

How the results depend on the processing

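Of the 98 calls against vehicle, 73 were kept without the filter, 88 after quantile normalization, 89 with arrays centred, 91 with array weights, 67 with the 2 groups alone and 81 with the hybridisation controls as a covariate, and 72 of 94 with probe sets of a gene averaged. The direction was the same in all of them but 1: Fads2 in kidney under Nav was 0.017 with the mean of probe sets against -0.12. The causes were not tested. Counts below give the reported number first, and those not listed stayed within 1.5 times. The counts over all genes under each setting are not given beside them, so a change cannot be read as particular to the members.

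With the 2 groups alone, DMF179.2 calls went from 11 to 6 in kidney (sterol 9 to 5, fatty acid 2 to 1) and from 14 to 4 in mesenteric node (sterol 8 to 3, fatty acid 6 to 1). In jejunum DMF100 went from 1 to 0 and the combination from 3 to 1, in mesenteric node DMF100 from 2 to 1, and in spleen Nav from 2 to 1. Between treatments, the combination against DMF100 went from 4 to 0 in kidney and 0 to 2 in mesenteric node, DMF179.2 against DMF100 from 1 to 0 in mesenteric node and 2 to 0 in spleen, and DMF179.2 against the combination from 3 to 0 in kidney and 3 to 5 in spleen.

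With array weights, sterol calls under DMF179.2 went from 7 to 11 in jejunum and 6 to 10 in spleen, and fatty acid calls from 6 to 10 in mesenteric node. In inguinal node DMF100 went from 0 to 4 and DMF179.2 from 0 to 6, in brain DMF179.2 and MEF79.2 from 0 to 1, in jejunum DMF100 from 1 to 3 and MEF79.2 from 0 to 4, in kidney MEF79.2 from 3 to 5, in mesenteric node the combination from 2 to 10, and in spleen DMF100 from 0 to 4 and Nav from 2 to 10. DMF179.2 against DMF100 went from 3 to 6 in jejunum, 1 to 0 in mesenteric node and 2 to 6 in spleen, DMF179.2 against the combination from 0 to 1 in brain, 3 to 1 in kidney and 3 to 10 in spleen, and the combination against DMF100 from 4 to 2 in kidney, 0 to 2 in mesenteric node and 0 to 1 in spleen. The F test among tissues went from 1 to 12 for DMF100, 4 to 12 for MEF79.2, 8 to 15 for the combination and 7 to 15 for Nav.

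With the hybridisation controls as a covariate, jejunum calls went from 10 to 6 under DMF179.2 (sterol 7 to 3) and 3 to 0 under the combination, Nav from 7 to 3 in mesenteric node and 2 to 5 in spleen, the combination against DMF100 from 4 to 2 in kidney, DMF179.2 against DMF100 from 1 to 2 in mesenteric node and 2 to 4 in spleen, and DMF179.2 against the combination from 3 to 5 in spleen. With arrays centred, jejunum fatty acid calls under DMF179.2 went from 3 to 5, brain Nav from 1 to 2, spleen DMF100 from 0 to 1, mesenteric node DMF100 and combination from 2 to 1, DMF179.2 against the combination from 0 to 1 in brain and 3 to 5 in kidney, DMF179.2 against DMF100 from 1 to 0 in mesenteric node and 2 to 1 in spleen, and the F test for MEF79.2 from 4 to 2. Quantile normalization took DMF100 and the combination in mesenteric node from 2 to 1.

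Without the filter, mesenteric node went from 14 to 9 under DMF179.2 (fatty acid 6 to 3), 2 to 0 under DMF100, 2 to 1 under the combination and 1 to 0 for DMF179.2 against DMF100, spleen from 2 to 1 under Nav and 3 to 1 for DMF179.2 against the combination, and the F test for DMF100 from 1 to 2. With the mean of probe sets, kidney fatty acid calls under DMF179.2 went from 2 to 1, inguinal node DMF100 from 0 to 1, jejunum DMF100 from 1 to 2, mesenteric node DMF100 and combination from 2 to 1 and the combination against DMF100 from 0 to 1, the brain Nav count stayed 1 with Idi1 in place of Elovl6, and the F test for DMF100 went from 1 to 3.

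Groups of a tissue share no replicate numbers. Across tissues, deviations of arrays from their group means had r above 0.1 in 532 of 866 pairs of equal number. Per pair of tissues the mean r was 0.0567 to 0.2515 for equal numbers. For other numbers of the same group it was -0.0364 to -0.0081. Equal numbers may thus mark the same mouse, which the labels do not say, and the main F test takes arrays as independent. With the replicate block (consensus correlation 0.135) the F test went from 1 to 3 for DMF100, 4 to 7 for MEF79.2, 8 to 10 for the combination, 7 to 9 for Nav and 22 to 25 for DMF179.2.

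Leaving out 1 array at a time, chosen after seeing the data except in blood, gave 7 to 13 calls under DMF179.2 in jejunum (sterol 5 to 9, fatty acid 2 to 5), 7 to 14 in kidney (6 to 11, 1 to 3), 5 to 20 in mesenteric node (5 to 10, 0 to 10) and 7 to 12 in spleen (3 to 7, 3 to 6). Without Nav replicate 40 the count was 11 in kidney, 12 in mesenteric node and 2 in spleen. In blood it stayed 0 under MEF79.2 and Nav. The filter and the lowest value of a tissue limit what low members can show.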
